A study of Mus musculus with 12 samples.

Results

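The suppressor of cytokine signaling (SOCS) family was examined in cerebral vessels isolated from the mouse forebrain during the first hours after lipopolysaccharide (LPS). The members were a named list of 7 genes, *Socs1*, *Socs2*, *Socs3*, *Socs4*, *Socs5*, *Socs6*, and *Cish*, matched by symbol to Ensembl identifiers of the GRCm38 mouse genome, and *Socs7* was left out of the list. All 7 of 7 were present among the 54119 genes summed from the transcript estimates, and all 7 were among the 19150 genes that passed a filter on low counts. The libraries came from wild type C57BL6 mice, 2 to 3 months old, which received either PBS or 10 mg/kg LPS into the peritoneal cavity. The LPS mice were killed 4 h, 30 min, or 15 min later, and when the PBS controls were killed is not given in the sources used here. Each of the 4 groups had 3 libraries, and each library pooled the vessels of 1 male and 1 female mouse, so that a group held 6 mice and neither sex nor animal could be separated. Depth was 1.83e+07 to 2.59e+07 fragments per library, and p-values measure the spread between these pooled libraries.

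SOCS proteins are feedback brakes on cytokine receptors that signal through Janus kinases (JAKs) and STAT transcription factors: STATs switch on SOCS genes, and the proteins then act on the receptor that started the signal. All carry an SH2 domain, which binds phosphorylated tyrosines, and a SOCS box, which recruits elongins B and C and cullin 5 to form a ubiquitin ligase. SOCS1 and SOCS3 also hold a short kinase inhibitory region that blocks JAKs directly, whereas CIS (encoded by *Cish*) and SOCS2 are best known for restraining growth hormone, prolactin, and other STAT5 signals. SOCS4, SOCS5, and SOCS6 have longer N-terminal regions and have been linked mainly to receptor tyrosine kinases.

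To show the sequence around the starts of inducible members, RefSeq promoter windows (GRCm38.p6, 250 bases before to 50 after the gene start) were searched on both strands for fixed letters. Windows were found for 4 of the 7 members, *Socs1*, *Socs3*, *Socs4*, and *Cish*. None was available for *Socs2*, *Socs5*, or *Socs6*, which were not searched. The stretches below are those of the members that were called higher in the vessels and whose windows held an element named for STAT or interferon signaling. Capitals mark matches to the STAT element TTCNNNGAA, the interferon element core GAAANNGAA, or the EGR element GCGTGGGCG or GCGGGGGCG. The *Socs3* stretch is chr11:117969367-117969616 on the minus strand, the *Socs1* stretch is chr16:10785537-10785786 on the minus strand, and the *Cish* stretch is chr9:107296654-107296683 on the plus strand.
Socs3: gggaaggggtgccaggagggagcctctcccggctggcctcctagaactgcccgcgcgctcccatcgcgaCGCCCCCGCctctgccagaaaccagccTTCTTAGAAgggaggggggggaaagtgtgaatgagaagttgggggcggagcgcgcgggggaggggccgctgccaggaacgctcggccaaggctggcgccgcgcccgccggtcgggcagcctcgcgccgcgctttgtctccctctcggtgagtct
Socs1: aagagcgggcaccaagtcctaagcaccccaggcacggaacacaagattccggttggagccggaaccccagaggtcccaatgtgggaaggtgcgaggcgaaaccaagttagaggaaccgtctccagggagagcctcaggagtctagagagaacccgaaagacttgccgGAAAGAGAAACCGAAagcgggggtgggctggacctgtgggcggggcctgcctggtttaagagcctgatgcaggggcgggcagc
Cish: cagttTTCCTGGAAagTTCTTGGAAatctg

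The *Socs3* window held 1 STAT element (TTCTTAGAA, first base at position -154 from the start) and 1 EGR element read on the opposite strand (position -181). The *Socs1* window held 2 overlapping interferon element cores, GAAAGAGAA at position -83 and GAAACCGAA at position -77, in sequence with no annotated *Socs1* exon. The *Cish* window held 2 STAT elements close together, TTCCTGGAA at position 1 and TTCTTGGAA at position 12, within the first untranslated exon that GENCODE annotates for transcript Cish-201. In the *Socs3* stretch, 77 of the 250 bases lie in an exon of the noncoding transcript Socs3-203. The coding transcript Socs3-201 starts downstream of this window, at 117969186. The *Socs3* positions are therefore counted from the RefSeq start, and the bases just before the start of Socs3-201 were not searched. The *Socs4* window held 1 EGR element (position -148) and no STAT or interferon element letters. Of 32851 promoter windows, 8.30% held the STAT element, 8.56% the interferon element core, and 3.47% the EGR element. The letters GGANTTTCC (NF-kB core, in 1.25% of windows), TGANTCA (AP-1, 7.81%), and TGACGTCA (CRE, 1.79%) were in none of the 4 members' windows. A match is a run of letters and was not tested as a binding site.

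In PBS vessels the members stood, by level per length, from percentile 29.6 (*Socs1*) to percentile 72.5 (*Socs2*) of the 19150 genes tested. Levels of different genes are compared in transcripts-per-million (TPM), which is per length. *Socs2* was the highest at 26.7 ± 0.736 TPM (mean ± SD, n = 3 libraries, as for all such values), followed by *Socs5* at 19.8 ± 1.23 TPM. *Cish* (9.73 ± 0.827 TPM), *Socs3* (8.94 ± 0.894 TPM), *Socs6* (8.79 ± 1.81 TPM), and *Socs4* (7.78 ± 0.453 TPM) followed, and each of them overlapped with the next in single libraries. *Socs1* was the lowest at 2.71 ± 0.117 TPM and did not overlap with any other member. At LPS 4 h the order had changed to *Socs3* (409 ± 13.6 TPM), *Socs2* (149 ± 3.39 TPM), *Socs1* (31.1 ± 1.05 TPM), *Socs5* (25.8 ± 1.60 TPM), *Cish* (21.8 ± 1.41 TPM), *Socs6* (8.22 ± 0.799 TPM), and *Socs4* (5.14 ± 0.202 TPM), with no overlap between neighbors.

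The summed family level was 84.5 ± 4.33 TPM in PBS and, in order of the LPS times, 96.9 ± 1.55, 97.5 ± 2.77, and 650 ± 15.7 TPM. In TPM the median gene fell by 0.28 on the log2 scale from LPS 15 min to LPS 30 min. In counts-per-million, the scale used below between groups, the family sums were 167 ± 2.21, 192 ± 0.414, 231 ± 7.64, and 1736 ± 20.9 in the same order. The share of the TPM sum that was *Socs3* was 10.6 ± 0.569% in PBS and 15.2 ± 1.88%, 23.4 ± 1.78%, and 63.0 ± 0.603% at the LPS times, and no 2 groups overlapped. Among the 19150 genes tested, the *Socs3* level per length stood at rank 9892 in PBS and at rank 245 at LPS 4 h.

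**Figure D1:**
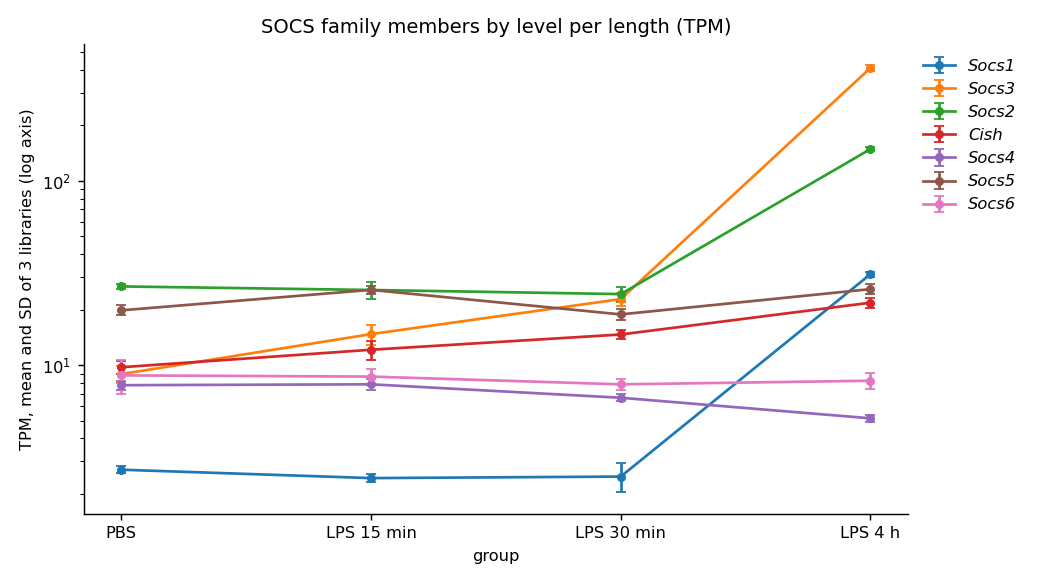
Mean level of each SOCS family member in TPM (log axis, whiskers SD, n = 3 libraries) in the 4 groups. *Socs2* was highest in PBS at 26.7 TPM and *Socs3* at LPS 4 h at 409 TPM, while *Socs1* went from the lowest place to the third. On this scale the median gene fell by 0.84 on the log2 scale between PBS and LPS 4 h, and the means of *Socs4* and *Socs6* are lower at LPS 4 h than in PBS although they are higher after TMM scaling.

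Between groups, genes were compared as counts-per-million (CPM) after trimmed mean of M-values (TMM) scaling, which takes the typical gene as the reference. This choice bears most on LPS 4 h. With library size alone the median of all genes tested fell by 0.71 on the log2 scale at LPS 4 h against PBS and by 0.17 at LPS 30 min, and all changes below are relative to the typical gene. The share of calls that were higher was 58.0% at LPS 4 h against PBS with TMM and 18.2% with library size alone. The same shares were 82.4% and 60.8% for LPS 30 min against PBS, 58.2% and 37.1% for LPS 30 min against LPS 15 min, and 58.8% and 21.7% for LPS 4 h against LPS 30 min. A gene was called when edgeR's glmTreat placed its change beyond 1.5-fold with a p below 0.05 after Benjamini-Hochberg adjustment across the whole table.

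The family went from no call at LPS 15 min to 5 of 7 called at LPS 4 h, and none of the 7 was called lower in any comparison. At LPS 15 min against PBS 0 of 7 members were called, where 3.35% of all genes were called higher and 0.898% lower. In that comparison 1 member had an unadjusted p under 0.05 (*Socs3*), and DESeq2 called 0. At LPS 30 min 2 of 7 were called higher (*Socs3* and *Cish*), against a background of 3.8% higher and 0.815% lower. At LPS 4 h 5 of 7 were called higher (*Socs1*, *Socs2*, *Socs3*, *Socs5*, and *Cish*), against 19.1% higher and 13.9% lower. Across the 7 members the middle log2 fold change was 0.13, 0.27, and 1.98 at the 3 times, beside medians of -0.002, -0.01, and -0.01 over all genes tested.

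Between neighboring LPS times, 1 of 7 was called higher at LPS 30 min against LPS 15 min (*Socs3*; background 2.77% higher and 1.99% lower). At LPS 4 h against LPS 30 min the members called higher were again *Socs1*, *Socs2*, *Socs3*, *Socs5*, and *Cish*, 5 of 7, where 17% of all genes were called higher and 11.9% lower. Without a fold limit (edgeR's quasi-likelihood F test), the numbers of members called were 3, 4, and 7 of 7 against PBS at the 3 times, and the shares of all genes were 38.6%, 36.9%, and 68.5%. The same test called 4 of 7 at LPS 30 min against LPS 15 min and 7 of 7 at LPS 4 h against LPS 30 min, beside 37.4% and 65.3% of all genes. Libraries of compared groups did not overlap for 5, 4, and 7 of 7 members against PBS at the 3 times, and the same held for 49.3%, 46.7%, and 70.9% of all genes, so a lack of overlap alone was common. Between neighboring LPS times it was 4 and 7 of 7 members and 47.6% and 67.5% of all genes.

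**Figure D2:**
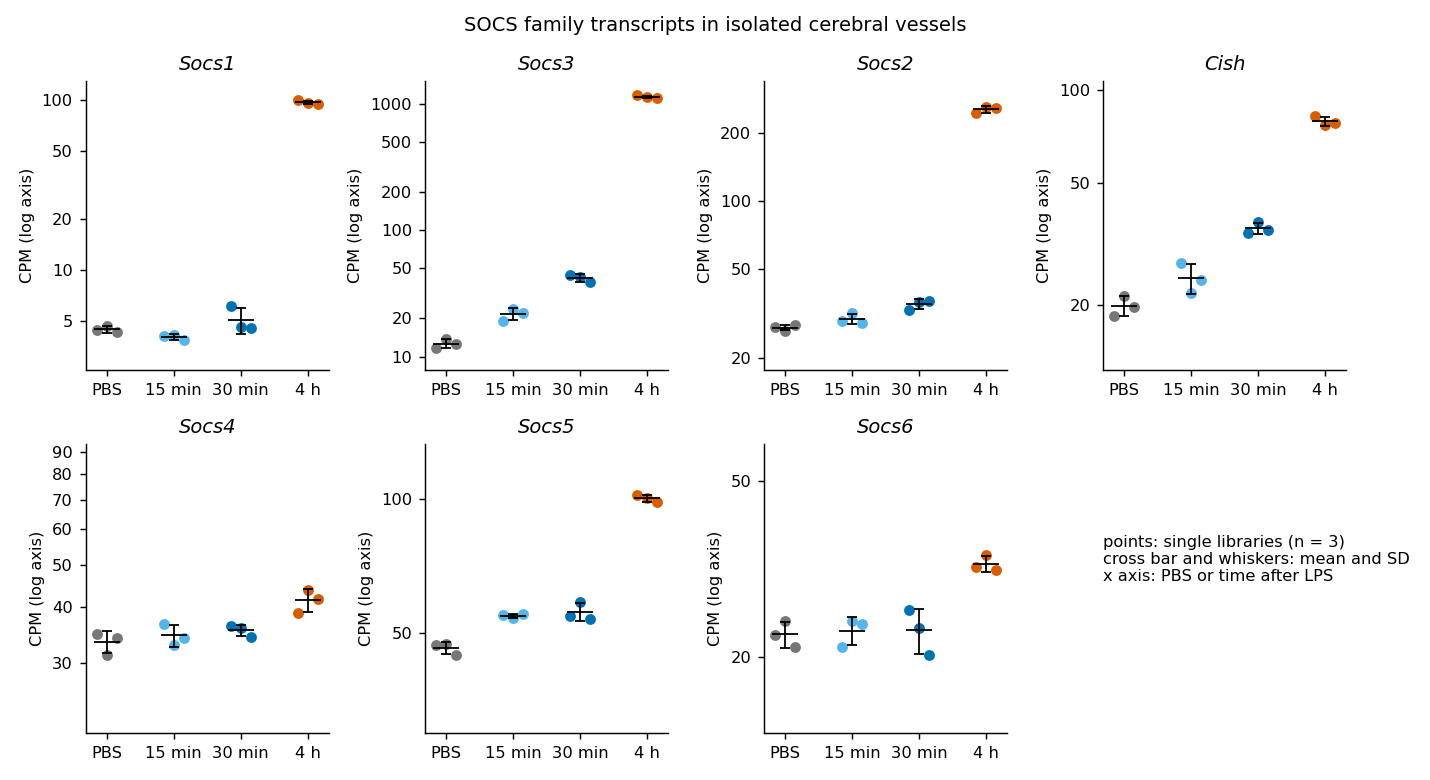
CPM (log axis) of each member in each of the 12 libraries, with the mean and SD of each group of 3. *Socs3* steps up at every time, from 11.7 to 13.7 CPM in PBS to 1114 to 1158 CPM at LPS 4 h, whereas *Socs1* stays between 3.85 and 6.11 CPM until LPS 30 min. The higher CPM of *Socs4* and *Socs6* at LPS 4 h depends on TMM scaling and turns to a fall with library size alone.

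*Socs3* (chromosome 11, 117966079 to 117970047, minus strand), the main brake on gp130 receptors of the interleukin-6 family and on STAT3, had the largest log2 fold change of the 7 at each time. In PBS its libraries held 11.7, 13.7, and 12.6 CPM. At LPS 15 min they held 19.1, 23.8, and 22.2 CPM, then 44.5, 42.1, and 38.9 CPM at LPS 30 min, then 1158, 1119, and 1114 CPM at LPS 4 h. Every library of a later time was above every library of an earlier one. Against PBS the log2 fold change was 0.77 (SE 0.0737) at LPS 15 min, with an adjusted p of 0.0545 against the 1.5-fold limit and 1.58e-08 without a fold limit.

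That early step sits at the limit of what was called. It was called when PBS replicate 2 was left out (0.83, adjusted p = 0.0232), without LPS 15 min replicate 1 (0.86, adjusted p = 0.00198), and without LPS 30 min replicate 1 (adjusted p = 0.0469) or replicate 3 (adjusted p = 0.0408), but not when any of the other 8 libraries was left out. At LPS 30 min *Socs3* rose by 1.72 (SE 0.0676, adjusted p = 5.08e-13), and at LPS 4 h by 6.48 (SE 0.0572, adjusted p = 1.22e-28), which is 89.0-fold. The step from LPS 15 min to LPS 30 min was 0.96 (SE 0.0621, adjusted p = 2.39e-05), a call lost with limma on the gene table plus 10 (0.92, adjusted p = 0.05001), and that from LPS 30 min to LPS 4 h 4.76 (SE 0.0501, adjusted p = 6.99e-27). Although *Socs3* was called at LPS 30 min, 2.61% of its CPM gain at LPS 4 h over PBS was present at LPS 30 min. By size of rise against PBS it ranked 1387, 335, and 134 of 19150 genes at the 3 times.

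*Socs1* (chromosome 16, 10782240 to 10785536, minus strand), which brakes interferon receptors through JAK inhibition, was called higher at LPS 4 h alone. Its libraries held 4.42, 4.69, and 4.31 CPM in PBS. At LPS 15 min they held 4.10, 4.16, and 3.85 CPM, and 15 min later 6.11, 4.605, and 4.56 CPM. The single value of 6.11 stood apart from the other early libraries, and LPS 30 min overlapped with PBS. The log2 fold change was -0.15 (SE 0.114) at LPS 15 min and 0.19 (SE 0.112) at LPS 30 min, neither called (adjusted p = 1 for both). The value at LPS 30 min was 0.033 without LPS 30 min replicate 1, and so rests on that library. The 3 libraries of LPS 4 h held 99.9, 96.1, and 95.5 CPM, a rise of 4.44 (SE 0.0845, adjusted p = 5.67e-22) or 21.7-fold. Of the CPM gain at LPS 4 h, 0.666% was present at LPS 30 min, and the change between those times was 4.25 (SE 0.0852, adjusted p = 2.20e-21).

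*Cish* (chromosome 9, 107296026 to 107302784, plus strand), a STAT5 target that restrains STAT5 receptors, followed *Socs3* in being called at LPS 30 min. The PBS libraries held 18.5, 21.5, and 19.8 CPM, those of LPS 15 min 27.4, 21.96, and 24.1, those of LPS 30 min 34.3, 37.2, and 35.0, and those of LPS 4 h 82.2, 76.6, and 78.1. No 2 groups overlapped. The change against PBS was 0.30 (SE 0.0743, adjusted p = 1), then 0.83 (SE 0.0727, adjusted p = 0.00599), then 1.98 (SE 0.0709, adjusted p = 3.77e-15) in order of time. Of the CPM gain at LPS 4 h, 26.4% was present at LPS 30 min. The call at LPS 30 min was lost without PBS replicate 1 (0.78, adjusted p = 0.0530), with DESeq2 (adjusted p = 0.0567), with limma on the authors' gene table (adjusted p = 0.0869 and 0.111 with 1 and 10 added), and with library size alone (0.67, adjusted p = 0.444). From LPS 15 min to LPS 30 min *Cish* changed by 0.53 (SE 0.0712, adjusted p = 1), and from LPS 30 min to LPS 4 h it rose by 1.15 (SE 0.0679, adjusted p = 1.53e-08).

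Reads of *Cish* share their place with 2 short genes on the other strand. All of the 479 exon bases of the antisense gene *Gm17041* and all 261 of the pseudogene *Gm17040* lie inside *Cish* exons, and the library kit does not mark strand. These genes were given 0 and 0 to 6 fragments per library, so reads of the 2 strands cannot be told apart in the *Cish* value. No other member shared exon bases with another annotated gene.

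*Socs2* (chromosome 10, 95385362 to 95417180, minus strand), the brake on growth hormone signaling, was the most abundant member in PBS and rose late. It held 27.6, 26.6, and 28.02 CPM in PBS, 29.4, 31.7, and 28.8 at LPS 15 min, and 32.9, 35.5, and 36.1 at LPS 30 min. These groups did not overlap, as 49.3% and 46.7% of all genes did not between PBS and the early LPS times, and the steps against PBS were small, at 0.13 (SE 0.0523) and 0.35 (SE 0.0523), and neither was called (adjusted p = 1 for both). The first of them turned to -0.06 when average transcript length was taken into account. The libraries of LPS 4 h held 244, 262, and 257 CPM. This was a rise of 3.22 against PBS (SE 0.0468, adjusted p = 5.87e-24) or 9.30-fold, and of 2.87 (SE 0.0463, adjusted p = 9.53e-23) against LPS 30 min.

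*Socs5* (chromosome 17, 87107679 to 87137839, plus strand), linked to the epidermal growth factor receptor, rose moderately. It held 47.0, 47.1, and 44.5 CPM in PBS, and 54.8, 53.9, and 55.03 CPM at LPS 15 min. Later libraries held 54.5, 58.6, and 53.8 CPM (LPS 30 min) and 102, 101, and 98.6 CPM (LPS 4 h). Each LPS group was above PBS in every library, where 49.3%, 46.7%, and 70.9% of all genes did not overlap with PBS at the 3 times, and the first 2 LPS times overlapped. The changes at LPS 15 min (0.24, SE 0.0444) and LPS 30 min (0.27, SE 0.0449) were below the 1.5-fold limit and not called, with an adjusted p without a fold limit of 0.000141 and 4.86e-05. By LPS 4 h *Socs5* rose by 1.12 (SE 0.0446, adjusted p = 2.13e-11), or 2.18-fold. With library size alone this value was 0.42 (adjusted p = 1) and no longer called, in a setting where the median of all genes tested was -0.71.

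*Socs4* (chromosome 14, 47276931 to 47296102, plus strand) and *Socs6*, which binds KIT and other receptor tyrosine kinases, were not called at any time. *Socs4* held 31.2 to 34.9 CPM in PBS, 32.9 to 36.8 and 34.2 to 36.2 CPM at the early LPS times, and 38.9, 43.8, and 41.9 CPM at LPS 4 h. *Socs6* held 21.1 to 24.1 CPM in PBS, 21.1 to 24.1 and 20.2 to 25.6 CPM at the early LPS times, and 32.1, 34.0, and 31.6 CPM at LPS 4 h. Both overlapped between PBS and the early times and were above PBS in all 3 libraries at LPS 4 h, when 70.9% of all genes did not overlap with PBS. Their log2 fold changes at that time were 0.32 (SE 0.0632, adjusted p = 1) and 0.53 (SE 0.0826, adjusted p = 0.830), while without a fold limit the adjusted p was 0.000122 and 5.88e-06. With library size alone the same changes turned to -0.39 for *Socs4* and -0.18 for *Socs6*, both less negative than the -0.71 of the median gene.

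**Figure D3:**
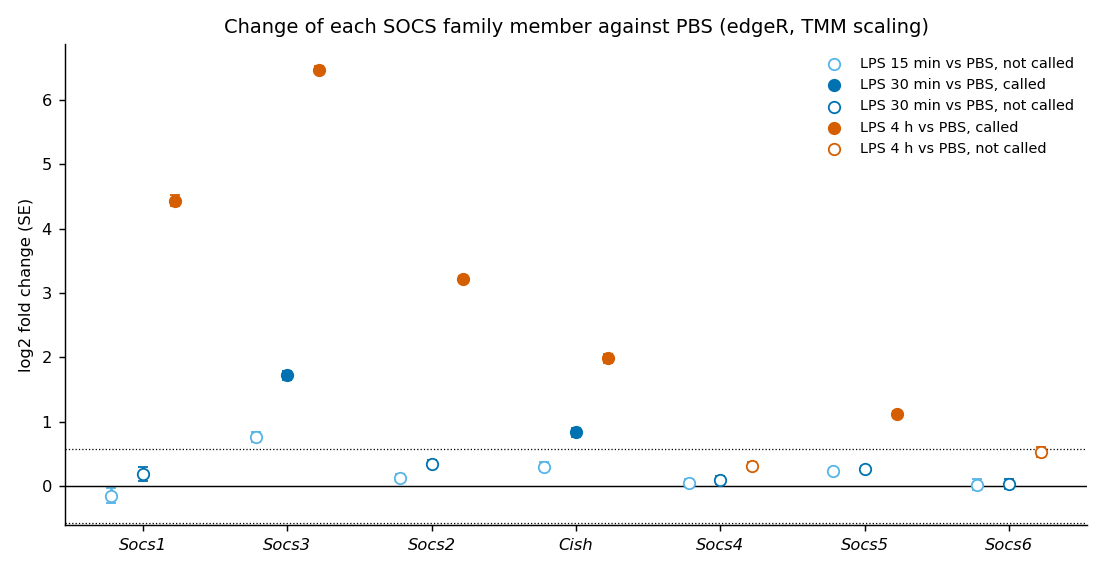
Log2 fold change of each member against PBS at each LPS time (edgeR with TMM scaling, whiskers SE, dotted lines at 0.58 in either direction, filled points called). *Socs3* and *Cish* are the 2 filled points at LPS 30 min and 5 members are filled at LPS 4 h, while the values of *Socs4* (0.32) and *Socs6* (0.53) at LPS 4 h turn negative with library size alone.

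The annotated transcripts carrying each gene were also compared, as shares of the gene's fragments that Salmon assigned to each. *Socs3* was carried almost entirely by Socs3-201, with 99.0% or more in every library, and *Socs4* by Socs4-201. Socs1-201 held 78.4% to 94.7% of *Socs1* fragments and Socs5-201 91.3% to 96.4% of those of *Socs5*. In *Cish* the coding transcript Cish-201 held 49.4 ± 1.56% in PBS and 56.1 ± 2.68%, 59.3 ± 2.20%, and 65.2 ± 2.29% at the LPS times. PBS and LPS 4 h did not overlap with each other or with the early LPS times, which overlapped.

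Cish-202, annotated as a processed transcript without a coding sequence, held 42.5 ± 2.87% in PBS and 28.9 ± 4.61% at LPS 4 h, with no overlap. In *Socs2* the transcript Socs2-209, annotated as a target of nonsense-mediated decay, held 10.2 ± 0.565% in PBS and 15.8 ± 0.0840% at LPS 4 h, again with no overlap. The coding Socs2-201 held 67.5 ± 4.86% in PBS and 74.3 ± 1.31%, 74.1 ± 2.31%, and 63.0 ± 1.86% at the LPS times, where PBS and LPS 4 h overlapped. In *Socs6*, Socs6-201 held 69.6 ± 5.89% in PBS and 53.1 ± 4.42% at LPS 4 h, with no overlap between them. These shares are estimates in which isoforms divide common reads, and they were not tested. How often the shares of other genes' transcripts did not overlap was not counted, so lack of overlap does not set these transcripts apart. At the gene level 70.9% of all genes did not overlap between PBS and LPS 4 h.

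**Figure D4:**
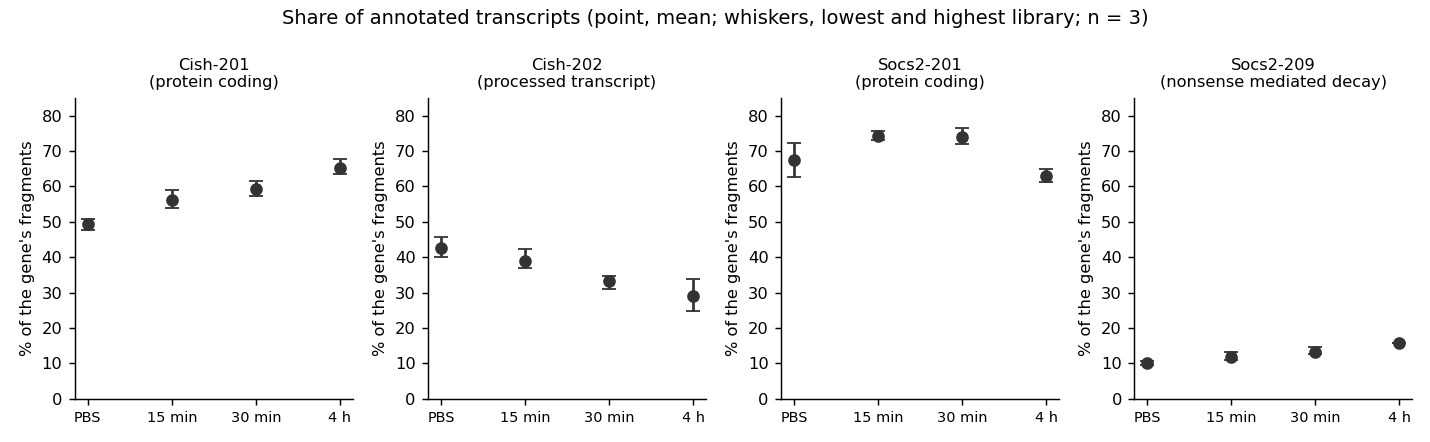
Share of the gene's fragments held by 4 transcripts of *Cish* and *Socs2* in each group (point, mean of 3 libraries, whiskers, lowest and highest library). Cish-201 went from 49.4% in PBS to 65.2% at LPS 4 h, and Cish-202 from 42.5% to 28.9%.

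To set the brakes beside the pathway they act on, 5 lists of JAK-STAT genes were counted with the same test. Of 4 JAK kinases, 0 were called at LPS 15 min or LPS 30 min. Of all genes, 3.35% and 3.8% were called higher and 0.898% and 0.815% lower at these times. A count of 0 of 4 is near those shares. By LPS 4 h 3 of 4 JAK kinases rose, *Jak2* by 2.53, *Jak1* by 1.93, and *Jak3* by 1.17, with a list median of 1.55, where 19.1% of all genes were called higher and 13.9% lower. *Tyk2* was at -0.31 and not called. *Jak3* was not called, and *Tyk2* was called lower, with library size alone. At LPS 4 h against PBS that setting called 1919 of the 19150 genes higher and 8604 lower. Among STAT factors, *Stat5a* rose by 3.46, *Stat4* by 3.03, and *Stat2* by 2.86 at LPS 4 h. *Stat5b* (-0.45) and *Stat6* (-0.23), named after their values were seen, were not called. Both were called lower with library size alone, as were 8604 of the 19150 genes.

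Of 26 receptor chains that signal through JAKs, 24 passed the filter. None was called at LPS 15 min, where 3.35% of all genes were called higher and 0.898% lower. These shares were 3.8% and 0.815% at LPS 30 min. At LPS 30 min 2 were called higher, *Osmr*, the oncostatin M receptor chain, which went from 85.6 ± 3.69 to 163 ± 4.66 CPM (0.93, SE 0.0324), and *Il10ra*, the interleukin-10 receptor chain, from 4.01 ± 0.459 to 7.72 ± 0.597 CPM (0.94, SE 0.139, adjusted p = 0.0418). *Il10ra* was not called with library size alone or with median-of-ratios factors. By LPS 4 h 13 of 24 rose and 2 fell, with a median of 1.00, beside 19.1% and 13.9% of all genes, so that the share of falls was below that of all genes. The largest rises were those of *Il4ra* (4.01), *Osmr* (3.63), and *Csf2rb* (3.25), and the falls those of the erythropoietin receptor *Epor* (-1.39) and the leukemia inhibitory factor receptor *Lifr* (-0.89). These counts were 10 and 6 with library size alone, a setting that called 1919 of the 19150 genes higher and 8604 lower.

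Ligands of these receptors were scarce in PBS, and 18 of 25 passed the filter (*Lep*, *Csf2*, *Ifnb1*, *Ifng*, *Il2*, *Il13*, and *Epo* did not). None was called at LPS 15 min, beside 3.35% of all genes called higher and 0.898% lower. By LPS 30 min 4 were called higher, beside 3.8% of all genes called higher and 0.815% lower. *Csf3*, the granulocyte colony-stimulating factor, went from 0.245 ± 0.0682 to 10.6 ± 0.423 CPM (5.42, SE 0.119), and *Osm*, oncostatin M, from 0.172 ± 0.111 to 1.19 ± 0.210 CPM (2.77, SE 0.530). *Il6* and *Il10* had 0 fragments in every PBS library. At LPS 30 min *Il6* had 7 to 16 fragments per library, at least 4.79-fold higher than a floor of 3 fragments per PBS library, and *Il10* had 9 to 23, at least 6.56-fold higher. By LPS 4 h 12 of 18 rose and 0 fell, beside 19.1% and 13.9% of all genes. *Csf3* reached 3170 ± 38.4 CPM (13.64), *Il6* 548 ± 13.8 CPM, at least 5008-fold higher than the floor, and *Il12b* 10.8 ± 1.27 CPM, at least 98.7-fold higher than the floor. The median of the 18 was 3.96 with such genes at their bounds. With library size alone 11 rose, beside 1919 of the 19150 genes called higher.

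Among other brakes on JAK-STAT signaling 0 of 10 were called at LPS 15 min or LPS 30 min. Of all genes, 3.35% and 3.8% were called higher and 0.898% and 0.815% lower at these times. A count of 0 of 10 is near those shares. Of the 10 other brakes, 4 rose and 1 fell at LPS 4 h, beside 19.1% and 13.9% of all genes, and the single fall is near the share of all genes. *Usp18*, which restrains the type I interferon receptor, rose by 5.09 (SE 0.0492), and the tyrosine phosphatases *Ptpn2* and *Ptpn1* rose by 2.68 (SE 0.0694) and 2.36 (SE 0.0456). *Pias3*, an inhibitor of STAT3, fell by 1.23 (SE 0.0629). The list median was 0.37 and turned to -0.33 with library size alone, where 3 rose and 2 fell. In that setting 1919 of the 19150 genes were called higher and 8604 lower. Of the 4 partners with which the SOCS box forms a ubiquitin ligase, *Eloc* was called at LPS 4 h, at 0.86 (SE 0.0573, adjusted p = 3.25e-05), and *Elob* (-0.12), *Cul5* (0.15), and *Rnf7* (-0.12) were not. None of the 4 was called higher and 2 were called lower with library size alone. A count of 2 of 4 is near the 8604 of 19150 genes called lower in that setting.

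**Figure D5:**
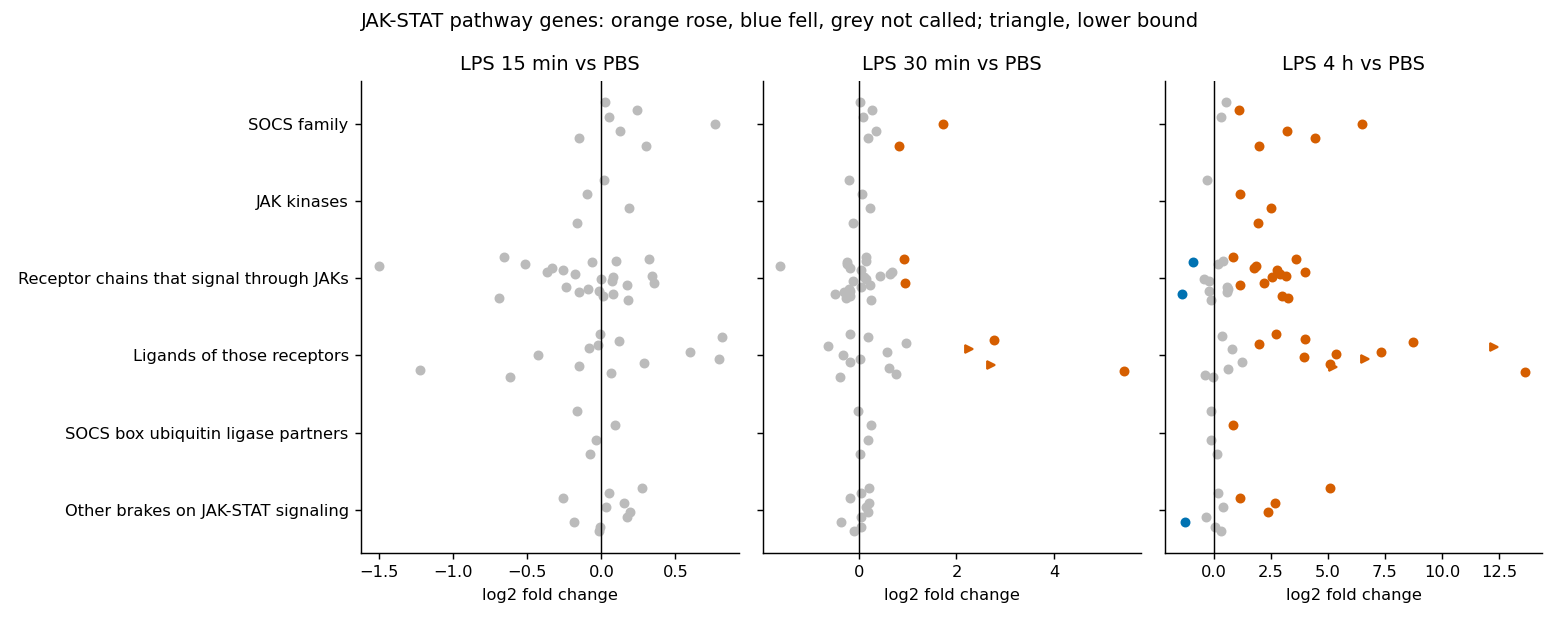
Log2 fold changes of the SOCS family and of 5 lists of JAK-STAT genes at each LPS time against PBS (TMM scaling, 1 point per gene, orange called higher, blue called lower, grey not called, triangles lower bounds for genes with 0 fragments in PBS, genes at or under 3 fragments per library in both groups left out). At LPS 30 min 4 ligands and 2 receptor chains are called. Of the 4 JAK kinases 0 are called at that time, near the 3.8% of all genes called higher. With library size alone the points at LPS 4 h lie about 0.71 lower, and the lists of other brakes and ligase partners then have negative medians.

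The genes whose profile over the 12 libraries was most like that of each member were listed as a description, by Pearson's r of log2 CPM among 12795 genes. For *Socs3* they were *Osmr* (0.999), *Pfkfb3*, and *Top1*, for *Socs1* *Rab5c* (0.999), *Nfkb1*, and *March5*, and for *Socs2* *Csnk1a1* (1.00), *Tmed5*, and *Isg15*. For *Cish* they were *Ldha* (0.995), *Cct2*, and *Kdm6b*, and for *Socs5* *B4galt5* (0.997), *Tmem184b*, and *Susd6*. The closest profiles were less alike for *Socs6* (*Ammecr1l*, 0.966, *Lims1*, and *Hus1*) and *Socs4* (*Ing5*, 0.948, *Larp7*, and *Nfxl1*). The libraries fall into 4 groups, and LPS 4 h sets most of these values.

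The vessels hold several cell types, and fewer cells of a type cannot be told apart from less RNA per cell. All 8 endothelial markers were detected in every group, with a summed level of 10188 to 10396 TPM in PBS and 3957 to 4009 TPM at LPS 4 h. At that time 5 of the 8 were called lower and 1 higher, where 13.9% of all genes were called lower and 19.1% higher. The 6 pericyte markers summed to 1799 to 1925 TPM in PBS and 728 to 740 TPM at LPS 4 h. After TMM scaling 2 of these 6 were called lower and 0 higher, with a median log2 fold change of -0.32. The sums are in TPM, a scale on which the median gene fell by 0.84 (log2) between PBS and LPS 4 h. Of the neutrophil markers 4 of 6 were called higher at LPS 4 h, and the summed level went from 11.8 to 16.6 TPM in PBS to 560 to 584 TPM. In PBS *Ly6g* and *Elane* were at 0, and neither passed the filter. Both stayed scarce at LPS 4 h, when *Ly6g* had 2, 9, and 2 fragments and *Elane* had 2, 0, and 0.

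At LPS 30 min, when *Socs3* and *Cish* were called, neutrophil markers were at 15.7 to 24.0 TPM with none of 4 tested called, after 4.11 to 8.57 TPM and 1 called lower at LPS 15 min. Red blood cell markers (4 of 4) were called higher at LPS 30 min and LPS 4 h and 2 of 4 at LPS 15 min, with sums of 9715 to 10941 TPM in PBS and 14605 to 15460, 15544 to 16354, and 16236 to 17052 TPM at the LPS times. Some of the further markers called at LPS 30 min are named here, after their values were seen. *Slc2a1* (endothelial, 1.01), *Lyve1* (perivascular macrophage, 1.195), and *Aqp4* (astrocyte, 2.65) were higher. *Cldn5* (endothelial, -0.90), *Col1a1* (fibroblast, -0.76), *Cx3cr1* (microglia, -1.21), and *Cd79b* (B cell, -1.91) were lower. These are single genes, as 1 of 8 endothelial, 1 of 4 perivascular macrophage, and 1 of 5 astrocyte markers were called higher at LPS 30 min. The list medians were then -0.22 (endothelial), 0.41 (perivascular macrophage), and -0.026 (astrocyte). Astrocyte markers summed to 159 to 164 TPM at LPS 30 min, below PBS. Microglial markers were lower at LPS 4 h (3 of 6 called, 58.7 to 60.2 TPM in PBS and 17.9 to 25.4 TPM at LPS 4 h), as were 2 of 5 fibroblast and 1 of 4 oligodendrocyte markers. Smooth muscle markers (3 of 5) were called lower at LPS 15 min, when 2 of 5 neuronal markers were called higher. At LPS 4 h 2 of 4 perivascular macrophage and 2 of 5 astrocyte markers were called higher, and of the T and NK cell markers 1 was called higher and 1 lower. In TPM, where the median gene fell, the sums of the first 2 lists were lower. Perivascular macrophage markers summed to 58.8 to 70.3 TPM in PBS and 43.3 to 45.3 TPM at LPS 4 h. Astrocyte markers summed to 203 to 210 TPM in PBS and 149 to 170 TPM at LPS 4 h. Of all genes, 3.35% were called higher and 0.898% lower at LPS 15 min, and 3.8% and 0.815% at LPS 30 min. For LPS 4 h these shares were 19.1% and 13.9%. The single calls among oligodendrocyte and among T and NK cell markers at LPS 4 h are near them. The part of these cell types in the changes of SOCS family members was not tested.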

How the data were processed

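RNA of isolated cerebral vessels was sequenced in 12 libraries (SMART-Seq and Nextera XT kits, paired ends). The authors quantified transcripts with Salmon 1.2.1 against GRCm38.p6 and imported them with tximport. The deposited expected counts per transcript are Salmon's fragment estimates without normalization. The deposited TPM values were put by the authors' software on a per-length scale with a fixed sum, so a few abundant transcripts lower all others. The values of the deposited gene table are a signal: gene counts as normalized by the authors with DESeq2. They are not the counts summed here divided by 1 factor per library. In LPS 4 h replicate 1, *Socs1* had 1296 fragments and a value of 2156 in the gene table. *Socs6* had 416 fragments and a value of 861. Effective lengths in the authors' files served only as length offsets.

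Transcripts were joined without version to GENCODE M21 (139852 of 140948, and 139357 with the same version). The unjoined held 0.482% to 0.850% of the fragments. Counts were summed to 54119 genes and rounded. Of these, 19150 passed filterByExpr with a minimum count of 10, a minimum total of 15, and a proportion of 0.7. All 12 libraries entered 1 edgeR 4.0.16 quasi-likelihood fit under R 4.3.3 with TMM factors, and glmTreat tested against 0.58 on the log2 scale. Adjusted p-values are Benjamini-Hochberg over all genes tested. The SE was taken as the absolute log2 fold change over the root of its quasi-likelihood F. The mean TMM factor was 1.17 in PBS and 1.15, 1.04, and 0.717 at the LPS times. The common biological coefficient of variation was 0.0524. An exact permutation test of 3 against 3 libraries cannot go below p = 0.1, so none was used. The fit was tested on simulated data first.

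Alternatives were DESeq2 1.42.0, limma 3.58.1 on the gene table, other scalings, filters, and samples, and a replicate block. Libraries share numbers between groups, but within-group deviations of same-numbered libraries correlated at no more than 0.0679 over 18 pairs, and the number was therefore treated as a name only. All 3 comparisons with PBS share the PBS libraries. Members and lists were chosen with earlier results of these data known. From each list the text names genes called at LPS 15 min or 30 min, up to 4, and the 3 largest rises and 3 largest falls called at LPS 4 h, and for each member the 3 genes with the closest profile (mean CPM of at least 5, prior count 2). Some list and marker results are not reported here. The scaling of the lists was varied after the data were seen. Sequences are from RefSeq.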

Additional observations from a re-analysis of the deposited data

Results flagged for a closer look

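For *Socs3* the effect of LPS differed between the 15 min and 30 min times by the test of that difference in edgeR, with a log2 difference of 0.96 (not called with limma plus 10, adjusted p = 0.05001), and between 30 min and 4 h by 4.76. For 4 other members the effect at LPS 4 h was larger than at LPS 30 min by the same test: 4.25 for *Socs1*, 2.87 for *Socs2*, 1.15 for *Cish*, and 0.85 for *Socs5*. With library size alone the last 2 were not called.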

How the results depend on the processing

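Under the 10 other settings and the 12 fits that left out 1 library, *Socs1*, *Socs2*, and *Socs3* at LPS 4 h and *Socs3* at LPS 30 min kept their direction and their call in each one. The number of members called at LPS 15 min against PBS went from 0 to 1 without a low-count filter and to 3 without a fold limit, and ranged from 0 to 1 when single libraries were left out. The 2 called at LPS 30 min became 1 with DESeq2, with library size only, and with limma on the gene table plus 1 or plus 10, and 4 without a fold limit, and ranged from 1 to 2 when single libraries were left out. The 1 called at LPS 30 min against LPS 15 min became 0 with limma plus 10 and 4 without a fold limit. The 5 called at LPS 4 h against LPS 30 min became 3 with library size only. The cause was not tested.

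Library size only gave, at LPS 15 min, -0.00077 for *Socs6*, at LPS 30 min, -0.077 for *Socs4* and -0.13 for *Socs6*, at LPS 4 h, -0.39 and -0.18, at LPS 30 min against LPS 15 min, -0.11 for *Socs4*, -0.11 for *Socs5*, and -0.13 for *Socs6*, and at LPS 4 h against LPS 30 min, -0.31 for *Socs4* and -0.041 for *Socs6*. At LPS 15 min *Socs2* and *Socs6* were at -0.063 and -0.015 with the length offset, -0.082 and -0.0197 with limma plus 1, and -0.081 and -0.0196 with limma plus 10. *Socs5* at LPS 30 min against LPS 15 min was at -0.15 in these 3 settings. Leaving out single libraries moved *Socs6* between -0.021 and 0.086 at LPS 15 min, between -0.052 and 0.12 at LPS 30 min, and between -0.076 and 0.091 at LPS 30 min against LPS 15 min, and *Socs5* there between -0.011 and 0.051.

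A fit with the replicate number as a block called 0, 2, and 5 members against PBS at the 3 times and 1 and 5 between neighboring times, which changed no call, and 8 of 12 libraries were nearest to their own number. Depth limits the early values of *Socs1*, which rest on 98 to 141 fragments per library.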
